A study of Mus musculus with 4 samples.

Results

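Sik1, which encodes salt-inducible kinase 1, and 7 further genes known as targets of cAMP signalling through CREB were followed in leukocytes of the mouse ovary. The 8 members, Sik1, Crem, Irs2, Pde4d, Pde4b, Rgs2, Kdm6b and Ppp1r15a, were taken by symbol from the 32285 genes of the deposited table. All 8 were found. Sik1 was selected on the CPM of these same mice, being lower after gonadotropin treatment across lineages, so its difference between the groups is given below as a description with no test.

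The leukocytes came from female C57BL/6J mice aged 10 to 12 weeks, of which 5 received gonadotropin and 5 received saline, the untreated group. Ovaries were taken 48 h later and dissociated, and viable cells carrying the leukocyte surface protein CD45 were sorted. The cells of each mouse carried a hashtag antibody of their own, but each group was pooled into 1 droplet library, so that treatment and library cannot be told apart. Gonadotropins are pituitary and placental hormones that make ovarian follicles mature and ovulate, and the agent and dose are not given in the sources used here. The genotype of both groups is the inbred strain itself, with no transgene or deletion in the labels.

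cAMP is made by adenylate cyclases when a hormone or prostaglandin binds a receptor coupled to the stimulatory G protein, and it activates protein kinase A. The kinase phosphorylates the transcription factor CREB, which binds the cAMP response element, abbreviated CRE, in front of its target genes. Several of those targets act back on the pathway: SIK1 phosphorylates the CREB coactivators of the CRTC family and keeps them in the cytoplasm, CREM gives rise to a repressor called ICER, and phosphodiesterases break cAMP down. In leukocytes a rise in cAMP is known for restraining activation.

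The 2 libraries held 6468 barcodes, of which 4918 cells with a single hashtag passed the filters, 2423 from gonadotropin and 2495 from untreated mice. A mouse gave 290 to 828 cells and 2559097 to 7097779 UMIs, the unique molecule counts of this assay. The libraries shared 4 barcodes. Lineages were set by marker genes. The 6 that were analysed, with 4146 cells or 84.3% of those kept, each had at least 20 cells in at least 3 mice per group. The 364 T cells without exactly 1 coreceptor, CD4 or CD8, also met this rule but were left out. B cells were divided into a follicular type, which carries Fcer2a, Cr2 and Ighd, and a B-1 type, which carries Bhlhe41, Zbtb32 and Sox5. The other lineages were CD4 T cells, CD8 T cells, NK cells with ILC1, and monocytes with macrophages. The gates used these markers, so their levels describe the sums: Fcer2a was at 340 CPM in the follicular and 1.65 CPM in the B-1 type, Bhlhe41 at 15.5 and 99.5 CPM. Values are CPM, the UMIs of a gene relative to all UMIs of the summed cells of 1 mouse in 1 lineage, scaled with TMM factors within the lineage. A change is the log2 fold change, gonadotropin minus untreated, with its standard error.

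Sik1 (chromosome 17, 31844248 to 31855804, GRCm38.p6) had a lower mean in the gonadotropin group in all 6 lineages. In follicular-type B cells the untreated mice 1 to 5 had 130, 125, 138, 168 and 135 CPM, and the gonadotropin mice 1 to 5 had 76.5, 83.1, 79.1, 99.8 and 78.6 CPM. Every untreated mouse lay above every gonadotropin mouse, and the log2 difference was −0.68 ± 0.10. In B-1-type B cells the untreated mice 1 to 5 had 107, 184, 167, 146 and 140 CPM, and the gonadotropin mice 2, 3 and 4 had 91.9, 69.4 and 72.9 CPM. These groups did not overlap either, at a log2 difference of −0.95 ± 0.19, which was −0.41 ± 0.38 with each cell thinned to 2000 UMIs.

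In CD4 T cells Sik1 stood at 123, 78.5, 135, 89.8 and 97.6 CPM in untreated mice 1 to 5 and at 39.5, 48.9, 33.1, 59.8 and 26.9 CPM in gonadotropin mice 1 to 5. The groups were apart here too, and the log2 difference of −1.21 ± 0.22 had the largest size among the 6 lineages. Sik1 in CD8 T cells was at 103, 73.9, 102 and 84.9 CPM in untreated mice 1, 2, 3 and 5, against 46.6, 37.9, 79.0, 42.4 and 44.3 CPM in gonadotropin mice 1 to 5. Gonadotropin mouse 3, with 17 Sik1 counts in 22 cells, was the one that reached into the untreated range, and the log2 difference was −0.90 ± 0.22.

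In NK cells and ILC1 the untreated mice 1 to 5 had 93.1, 65.4, 66.5, 77.8 and 130 CPM of Sik1, and the gonadotropin mice 28.0, 51.7, 78.8, 36.4 and 40.4 CPM. Gonadotropin mouse 3 again overlapped the untreated mice, at a log2 difference of −1.02 ± 0.27. In monocytes and macrophages the untreated mice 2, 4 and 5 had 172, 179 and 125 CPM, and the gonadotropin mice 1 to 5 had 224, 97.2, 87.1, 88.9 and 115 CPM. Gonadotropin mouse 1 was the highest of all 8 mice there. The log2 difference was −0.37 ± 0.31 with that mouse and −0.68 without it, and it was 0.12 ± 0.57 when each cell was thinned to 2000 UMIs. Summed over all 5 mice of each library, Sik1 there was at 127 CPM (95% Poisson interval 108 to 147) in untreated cells. The same sum was 109 CPM (95.5 to 123) in gonadotropin cells, and these intervals overlapped. Across the 6 lineages, then, 3 showed no overlap between the groups and 3 did. How many of all genes show no overlap was not counted, here or for the other members. The number of mice also differs between lineages. The precision is limited by the counts, since a sum of 1 mouse held between 41 and 338 Sik1 counts in follicular-type B cells but between 5 and 63 in CD4 T cells.

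**Figure D1:**
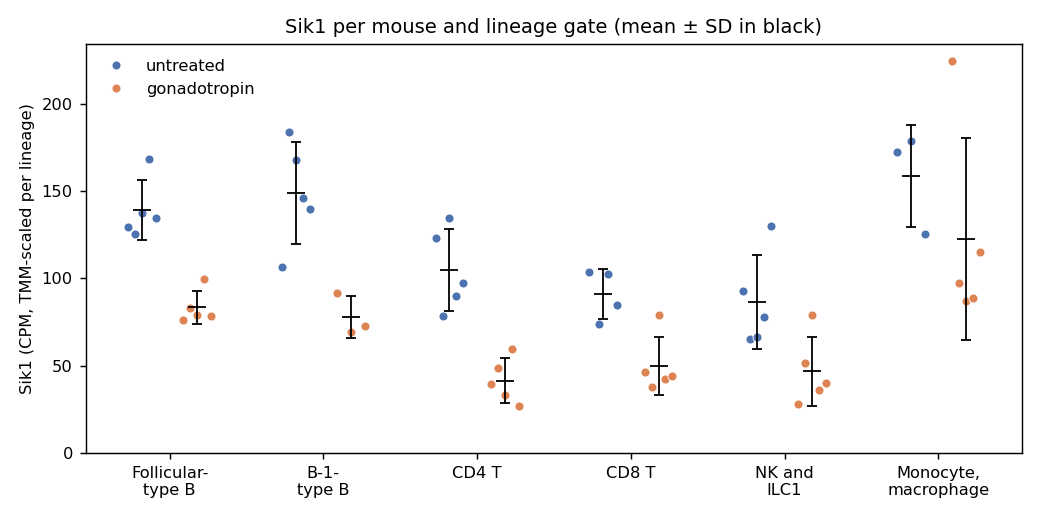
Sik1 in CPM (y axis) for each mouse in each of 6 lineages (x axis), with untreated mice in blue, gonadotropin mice in orange, and the mean and SD in black. The groups are apart in follicular-type B, B-1-type B and CD4 T cells, and 1 gonadotropin mouse at 224 CPM lies above all others in monocytes and macrophages.

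Barcodes that the hashtags called doublets, and that passed the gate of 1 lineage only, were not among the cells on which Sik1 was selected, although they come from the same pools and mice. Their summed counts gave Sik1 at 157 CPM (95% Poisson interval 143 to 173) in 210 untreated and 92.1 CPM (77.9 to 108) in 127 gonadotropin doublets of follicular type. In B-1-type doublets it was 155 CPM (142 to 168) and 84.3 CPM (73.2 to 96.6). In CD4 T doublets it was 116 CPM (70.6 to 178) and 43.8 CPM (23.3 to 75.0), and in monocyte and macrophage doublets 79.8 CPM (60.8 to 103) and 50.2 CPM (43.2 to 58.0). The few CD8 T doublets had 65.2 CPM (33.7 to 114) and 34.6 CPM (12.7 to 75.2), and those of NK cells and ILC1 131 CPM (76.0 to 209) and 21.1 CPM (5.74 to 53.9). The gonadotropin value was the lower one in all 6 lineages, with overlapping intervals in CD4 T and CD8 T cells. In monocytes and macrophages the doublets, 55 untreated and 187 gonadotropin, lay below the summed singlets, at 127 CPM (108 to 147) and 109 CPM (95.5 to 123). Whether those doublets hold the same mix of cells as the singlets was not tested. The intervals cover counting error only, and with 1 library per group there is no test.

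Lineages with too few cells for a value per mouse were summed per library. In neutrophils Sik1 was at 95.5 CPM (52.2 to 160) in 35 untreated cells and at 183 CPM (138 to 238) in 75 gonadotropin cells, so that the gonadotropin value was the higher one there. In dendritic cells it was 114 CPM (85.0 to 150) and 124 CPM (92.9 to 162). In mast cells and basophils, 10 cells in each library, Sik1 had 2 counts in the untreated and 0 counts in the gonadotropin library, where 57528 UMIs allow up to 64.1 CPM.

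Several other measures moved with the groups. Among follicular-type B cells the 23 genes of an early response list linked to tissue dissociation summed to 5091 to 5853 CPM (median 5416) in untreated and to 4415 to 4960 CPM (median 4875) in gonadotropin mice, with all 23 detected. The erythrocyte markers, mostly globin genes, summed to 4.69 to 8.75 CPM in untreated and to 38.4 to 62.9 CPM in gonadotropin mice. The median share of mitochondrial UMIs per cell was 2.30% to 2.49% in untreated and 2.06% to 2.24% in gonadotropin mice. The erythrocyte sum was higher in every gonadotropin mouse than in any untreated mouse in all 6 lineages. The early response sum was lower without overlap also in B-1-type B cells, CD8 T cells and monocytes and macrophages, and overlapped in CD4 T cells and in NK cells and ILC1. Their part in the differences of Sik1 and the other members was not tested. Among follicular-type B cells the 7 granulosa cell markers summed to at most 3.16 CPM, with Inha, Inhba, Cyp19a1 and Foxl2 at 0, and all 5 stromal markers were at 0.

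The other 7 members gave 42 pairs of a gene and a lineage. Of these, 34 passed the filter on low counts, and 4 passed an adjusted p of 0.05 (edgeR quasi-likelihood test, Benjamini-Hochberg over all genes of the lineage). Follicular-type B cells, the lineage with the most cells, held 3 of the 4: 3 of 7 members were called there, where 3.11% of 8397 genes were called. CD8 T cells held the other one, with 1 of 6 members called against 0.95% of 5476 genes. Irs2, Kdm6b and Pde4b are the members concerned.

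Irs2 (chromosome 8, 10984681 to 11008929) encodes insulin receptor substrate 2, an adaptor that links insulin and cytokine receptors to phosphoinositide 3-kinase. The values in follicular-type B cells were 32.7, 43.5, 37.2, 32.3 and 40.6 CPM in untreated mice 1 to 5 and 26.4, 14.0, 19.3, 23.9 and 14.7 CPM in gonadotropin mice 1 to 5. No gonadotropin mouse reached the lowest untreated mouse. Irs2 fell by 0.87 ± 0.17 on the log2 scale (edgeR adjusted p = 0.00568), and the adjusted p stayed between 0.00417 and 0.0245 when each mouse was left out in turn. With cells thinned to 2000 UMIs the change was −0.50 ± 0.27 and no longer passed (adjusted p = 0.397). In the doublets of follicular type Irs2 was at 30.9 CPM (24.8 to 38.2) in untreated and 17.3 CPM (11.5 to 25) in gonadotropin mice.

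Irs2 in CD8 T cells was at 38.2, 44.4, 23.6 and 14.1 CPM in untreated mice 1, 2, 3 and 5 and at 10.4, 6.32, 27.9, 9.78 and 33.2 CPM in gonadotropin mice. The groups overlapped, and the change of −1.07 ± 0.42 did not pass (edgeR adjusted p = 0.257). Irs2 did not pass the low count filter in the other 4 lineages, where its mean ran from 7.08 to 28.3 CPM.

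Kdm6b (chromosome 11, 69398508 to 69420367) encodes JMJD3, a demethylase that removes the repressive methyl marks from lysine 27 of histone H3 and is induced by inflammatory signals in macrophages. Follicular-type B cells of untreated mice 1 to 5 had 45.4, 50.9, 47.0, 33.7 and 36.6 CPM and those of gonadotropin mice 24.3, 31.3, 29.0, 28.0 and 34.6 CPM. Gonadotropin mouse 5 lay just above the lowest untreated mouse. Kdm6b fell by 0.58 ± 0.15 on the log2 scale (edgeR adjusted p = 0.0327). That call was lost without gonadotropin mouse 1, 3 or 4 or untreated mouse 1, 2 or 3, when the adjusted p reached up to 0.111, and also with a stricter gate (0.155), thinned cells (0.116) and DESeq2 without independent filtering (0.0865).

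Kdm6b in CD8 T cells was at 78.7, 79.5, 43.3 and 49.5 CPM in untreated mice 1, 2, 3 and 5. The gonadotropin mice 1 to 5 had 33.6, 19.0, 0, 24.5 and 44.3 CPM, mouse 3 with no count in 22 cells. Mouse 5 alone overlapped the untreated range. Kdm6b fell by 1.38 ± 0.32 there (edgeR adjusted p = 0.0234), and the call was lost without gonadotropin mouse 4, untreated mouse 1 or untreated mouse 2 (adjusted p up to 0.118), with a stricter gate (0.234) and with DESeq2 without independent filtering (0.054).

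In monocytes and macrophages, where Kdm6b was highest in the untreated group, the untreated mice 2, 4 and 5 had 129, 80.8 and 161 CPM and the gonadotropin mice 57.6, 21.6, 36.1, 60.8 and 74.7 CPM. The groups did not overlap, and the change of −1.37 ± 0.33 was close in size to that in CD8 T cells and did not pass (edgeR adjusted p = 0.236). It passed when no filter on low counts was applied (adjusted p = 0.00015). The doublets of this lineage gave 118 CPM (94.3 to 145) in untreated and 35.7 CPM (29.8 to 42.3) in gonadotropin mice. Whether these doublets hold the same mix of cells as the singlets was not tested. In this lineage the early response list summed to 7689 to 9401 CPM in untreated and 5531 to 6920 CPM in gonadotropin mice, and its part in the difference of Kdm6b was not tested.

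Kdm6b changed by −0.57 ± 0.25 in CD4 T cells and by −0.41 ± 0.30 in B-1-type B cells. In NK cells and ILC1 the sign was the other one, at 0.53 ± 0.32. The untreated mice had 51.7, 94.2, 38.8, 13 and 54.7 CPM there and the gonadotropin mice 84.0, 20.7, 117, 105 and 53.9 CPM, so that both groups spread widely. None of these 3 changes passed (edgeR adjusted p of 0.514, 0.785 and 0.823).

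Pde4b (chromosome 4, 102087332 to 102607275) and Pde4d (chromosome 13, 108654177 to 109955969) encode phosphodiesterases of the cAMP-specific type 4 family, which break cAMP down. Pde4b was the called member that rose. In follicular-type B cells it was at 368, 320, 284, 377 and 361 CPM in untreated mice 1 to 5 and at 435, 438, 401, 419 and 398 CPM in gonadotropin mice 1 to 5. Every gonadotropin mouse lay above every untreated mouse, and Pde4b rose by 0.29 ± 0.08 on the log2 scale (edgeR adjusted p = 0.032). The call was lost without gonadotropin mouse 1 or 4 or untreated mouse 2 or 3 (adjusted p up to 0.0902), with a stricter gate (0.0777) and with thinned cells (0.222).

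Pde4b was tested in all 6 lineages. Outside follicular-type B cells its changes lay between −0.49 ± 0.35 in monocytes and macrophages and 0.17 ± 0.19 in CD4 T cells, all with overlapping groups and none called. Pde4d was tested in 4 lineages and called in none. It was at 139, 69.4, 170, 89.8 and 131 CPM in CD4 T cells of untreated mice and at 109, 97.8, 70.3, 103 and 59.2 CPM in those of gonadotropin mice, a change of −0.39 ± 0.21 with overlapping groups (edgeR adjusted p = 0.618). Its change was −0.32 ± 0.21 in CD8 T cells, 0.58 ± 0.38 in monocytes and macrophages and −0.01 ± 0.27 in follicular-type B cells.

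**Figure D2:**
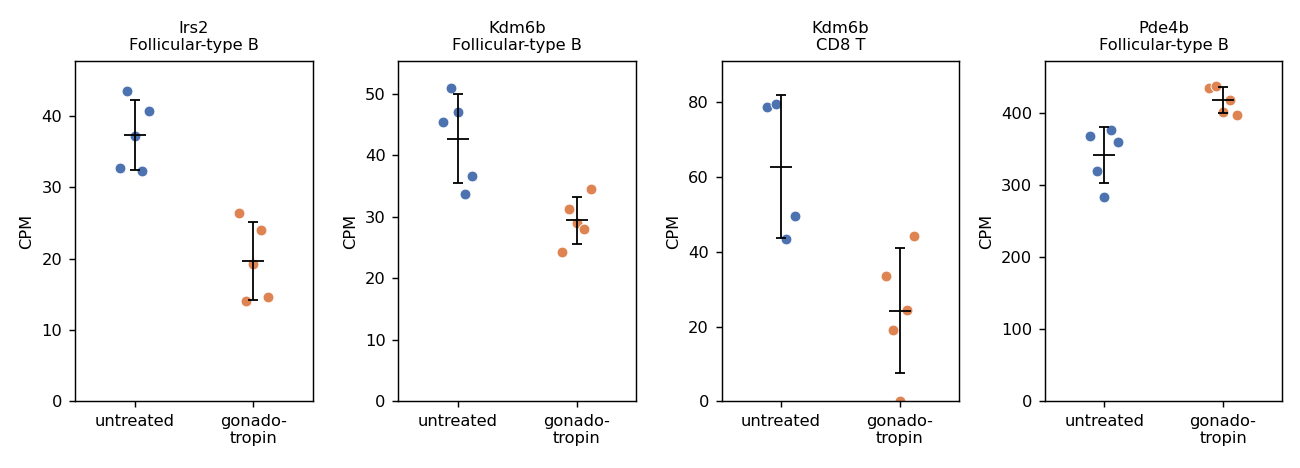
CPM (y axis, from 0) per mouse of the called members, with untreated mice in blue, gonadotropin mice in orange, and the mean and SD in black. Irs2 and Pde4b in follicular-type B cells show no overlap between the groups, and Kdm6b overlaps in 1 gonadotropin mouse in both lineages shown.

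Crem (chromosome 18, 3266354 to 3337773) was not called in any of the 5 lineages in which it was tested. In follicular-type B cells it was at 42.7, 39.8, 48.1, 56.1 and 43.0 CPM in untreated mice and at 43.1, 58.3, 50.2, 42.5 and 40.9 CPM in gonadotropin mice. The groups covered the same range, and the change was 0.05 ± 0.13. Its changes in the other lineages ran from −0.45 ± 0.27 in B-1-type B cells to 0.40 ± 0.23 in NK cells and ILC1, the latter from 42.2 ± 11.4 to 55.0 ± 5.04 CPM (SD, n = 5 mice each) and not called (edgeR adjusted p = 0.823). The counts do not separate the transcripts that give ICER from the other forms of Crem.

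Rgs2 (chromosome 1, 143999338 to 144004149) encodes a regulator of G protein signalling that shortens signals from receptors coupled to Gq. It was tested in 5 lineages and called in none. In monocytes and macrophages it was at 592, 415 and 429 CPM in untreated mice 2, 4 and 5 and at 382, 246, 217, 332 and 479 CPM in gonadotropin mice. Gonadotropin mouse 5 reached into the untreated range, and the change was −0.53 ± 0.25 (edgeR adjusted p = 0.674). In NK cells and ILC1 it was −0.48 ± 0.26, from 139 ± 64.4 to 107 ± 39.6 CPM (SD, n = 5 mice each), with overlapping groups. It was −0.03 ± 0.14 in follicular-type B cells. With each cell thinned to 2000 UMIs, the value there was −0.78 ± 0.22 and passed (edgeR adjusted p = 0.0382).

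Ppp1r15a (chromosome 7, 45522917 to 45526268) encodes GADD34, the subunit that directs protein phosphatase 1 to the translation factor eIF2 and so ends the translational block of the stress response. It was tested in all 6 lineages and called in none. In B-1-type B cells it was at 92.0, 69.8, 92.0, 85.5 and 98.5 CPM in untreated mice 1 to 5 and at 36.2, 69.4 and 60.2 CPM in gonadotropin mice 2, 3 and 4. The groups came close without overlapping, and the change was −0.64 ± 0.20 (edgeR adjusted p = 0.306). In monocytes and macrophages the untreated mice 2, 4 and 5 had 196, 104 and 89.9 CPM and the gonadotropin mice 93.9, 54.0, 55.3, 59.3 and 49.8 CPM. Gonadotropin mouse 1 was the only one to reach the untreated range, and the change was −1.02 ± 0.29 (edgeR adjusted p = 0.36). With no filter on low counts it was −0.98 ± 0.27 and passed (edgeR adjusted p = 0.0277). In the other 4 lineages the change lay between −0.19 ± 0.13 in CD4 T cells and 0.02 ± 0.25 in NK cells and ILC1.

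In the 4 lineages with no called member the background was low as well. In B-1-type B cells 0 of 5 members were called by edgeR against 0.206% of 7280 genes, and 1 had an unadjusted p below 0.05. In CD4 T cells it was 0 of 6 against 0.0835% of 4790 genes, with 1 at that unadjusted level. In NK cells and ILC1 it was 0 of 5 against 0.0189% of 5298 genes, with 0 at that level. In monocytes and macrophages it was 0 of 5 against 0% of 5873 genes, with 3 at that level, Kdm6b, Ppp1r15a and Rgs2. DESeq2 called 0 members in each of these 4 lineages, but gave an adjusted p for 0 of 5 members in NK cells and ILC1 and for 4 of 5 in monocytes and macrophages.

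**Figure D3:**
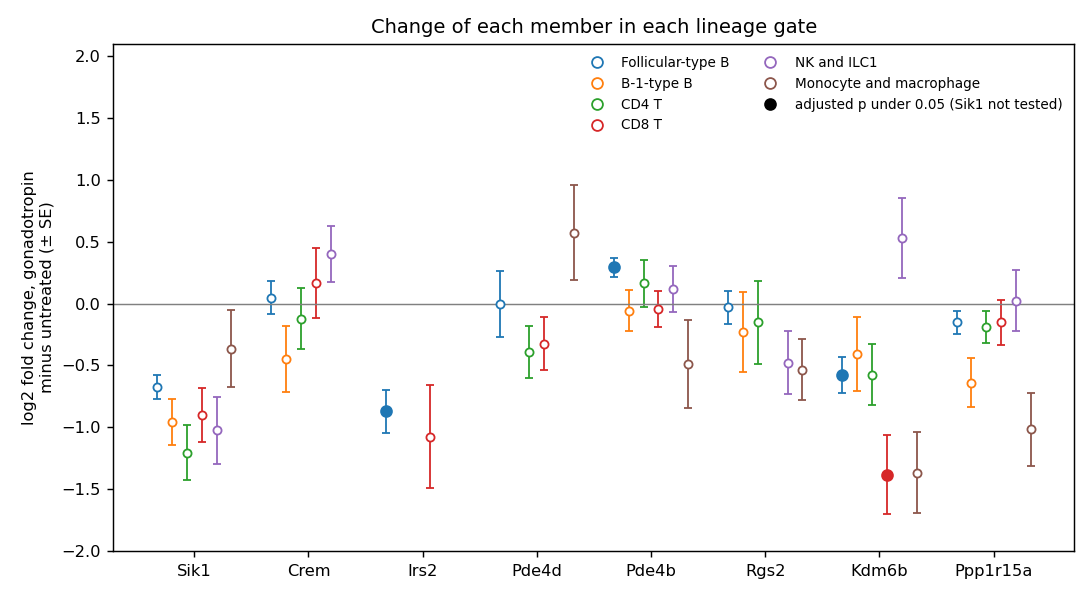
Log2 fold change, gonadotropin minus untreated, with its standard error (y axis), of each of the 8 members (x axis) in each lineage in which it passed the filter on low counts (color). Filled points passed an adjusted p of 0.05 and Sik1 carries no test. Irs2 and Kdm6b are filled below 0 and Pde4b above it, Sik1 is below 0 in all 6 lineages, and Crem and Pde4b lie on both sides.

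Whether a member's change differed between lineages was tested as the interaction of treatment and lineage, with the mouse as a block, in the 30 sums of the 3 gonadotropin and 2 untreated mice that had 20 cells in all 6 lineages. None of the 7 members passed, against 0.0324% of 9273 genes, and 4 had an unadjusted p below 0.05. Kdm6b, which was lower in 5 lineages and higher in NK cells and ILC1, had an adjusted p of 0.295, as did Pde4b. With no filter on low counts both passed, at adjusted p of 0.000391 for Kdm6b and 0.00474 for Pde4b. With all 55 sums of at least 20 cells, a setting chosen after seeing the data, Kdm6b had an adjusted p of 0.139 and Pde4b one of 0.832.

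Promoter sequences from RefSeq (GRCm38.p6), covering 250 bases before to 50 after the start, were taken for 5 of the 8 members only. These were Rgs2, Pde4b with 4 starts, Ppp1r15a, Irs2 and Pde4d. They were searched on both strands for the CRE, TGACGTCA, its half-site TGACG, which lies within the CRE, and the AP-1 site TGANTCA, bound by Fos and Jun proteins. Of all 32851 promoters of this length, 1.79% held the CRE, 20.81% the half-site and 7.81% the AP-1 site. The 250 bases before the start are shown for the promoter with a CRE, for 2 with a half-site only and for Irs2, which fell in follicular-type B cells, each 5′ to 3′ with CRE letters in capitals.
Ppp1r15a, chr7:45526269-45526518, minus strand: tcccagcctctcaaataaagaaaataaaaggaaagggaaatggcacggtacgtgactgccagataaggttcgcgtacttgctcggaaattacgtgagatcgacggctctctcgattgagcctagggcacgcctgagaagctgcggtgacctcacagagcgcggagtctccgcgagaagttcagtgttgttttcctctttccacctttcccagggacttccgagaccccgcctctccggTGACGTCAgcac
Rgs2, chr1:144004150-144004399, minus strand: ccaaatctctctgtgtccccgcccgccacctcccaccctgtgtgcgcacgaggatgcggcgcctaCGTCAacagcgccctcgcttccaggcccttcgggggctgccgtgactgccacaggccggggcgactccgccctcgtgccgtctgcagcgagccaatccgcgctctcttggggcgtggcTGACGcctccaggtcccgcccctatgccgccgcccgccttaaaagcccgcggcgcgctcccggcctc
Pde4b, chr4:102421305-102421554, plus strand: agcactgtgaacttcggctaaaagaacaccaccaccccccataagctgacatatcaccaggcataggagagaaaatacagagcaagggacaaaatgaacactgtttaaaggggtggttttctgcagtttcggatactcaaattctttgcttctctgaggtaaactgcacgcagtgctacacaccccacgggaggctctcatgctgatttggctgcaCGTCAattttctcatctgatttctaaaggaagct
Irs2, chr8:11008930-11009179, minus strand: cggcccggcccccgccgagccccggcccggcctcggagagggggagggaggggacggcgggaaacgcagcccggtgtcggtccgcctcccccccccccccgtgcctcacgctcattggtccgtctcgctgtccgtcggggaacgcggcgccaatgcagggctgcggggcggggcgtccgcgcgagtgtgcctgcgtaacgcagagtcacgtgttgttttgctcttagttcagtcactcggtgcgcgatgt

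Ppp1r15a held the full CRE at −12 to −5, counted from the start, and a further half-site after the start, at 8 to 12, beyond the bases shown. Rgs2 held half-sites at −185 to −181 and at −67 to −63, and the first of the 4 Pde4b starts held one at −34 to −30. None of these letters was found in the windows of Irs2, Pde4d or the other Pde4b starts. The AP-1 letters were in none of the windows of the 5 members searched. Pde4d was covered at the start of its gene only, and no Pde4b window lay at the first base of its gene. A match describes the letters only. No promoter of Sik1, Crem or Kdm6b was searched, so whether these members hold a CRE was not tested. Of the 5 members searched, Ppp1r15a was the one with the full CRE. It was called in no lineage with the filter on low counts, and in monocytes and macrophages without that filter.

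The rest of the cAMP pathway was followed through lists of genes, each counted as called higher or lower per lineage. The SIK branch, which holds Sik2, Sik3, the upstream kinase Stk11, the CRTC coactivators, class IIa histone deacetylases and Mef2 factors, had 0 of 13 tested genes called in follicular-type B cells, against 3.11% of all genes there, and a median change of 0.05, against 0.00 over all genes. Sik3 was at 150 ± 8.89 and 184 ± 25.6 CPM (SD, n = 5 mice each), a change of 0.26 ± 0.09 (edgeR adjusted p = 0.0919), and Sik2 changed by 0.01 ± 0.13. No gene of this branch was called in the other 5 lineages, where 8 to 12 were tested and 0% to 0.95% of all genes were called. No receptor, G protein subunit or adenylate cyclase of the lists was called in any lineage. Per lineage, 6 to 8 of the 15 receptor and G protein genes and 1 to 2 of the 8 cyclases were tested. Over the 6 lineages 0% to 3.11% of all genes were called, and with so few tested the absence of calls lies near that share.

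Of the protein kinase A and Epac genes, 2 of 12 were called in follicular-type B cells, against 3.11% of all genes. Rapgef4, the cAMP-binding exchange factor Epac2, rose by 0.53 ± 0.12 (edgeR adjusted p = 0.0157), and the regulatory subunit gene Prkar2b fell by 0.91 ± 0.25 (edgeR adjusted p = 0.0416). The CREB-binding protein gene Crebbp rose by 0.32 ± 0.07 (edgeR adjusted p = 0.0117), 1 of 8 in its list. Pde7a, another cAMP phosphodiesterase, rose by 0.31 ± 0.09 (edgeR adjusted p = 0.0452), 1 of 7 in its list. The same 3.11% of all genes stands beside both counts. None of these 3 lists had a called gene in the other 5 lineages, where at most 0.95% of all genes were called.

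Early genes known to respond to CREB, among other factors, were called lower in 4 lineages and higher in none. In follicular-type B cells 7 of 17 were called lower, against 131 of all 8397 genes called lower and 3.11% called in either direction. The median change of the list was −0.30, against 0.00 over all genes. Fos fell by 1.32 ± 0.12, Nr4a1 by 0.99 ± 0.25, Dusp1 by 0.97 ± 0.17, Junb by 0.95 ± 0.08 and Fosb by 0.61 ± 0.13 (edgeR adjusted p at most 0.0277). In CD8 T cells 3 of 14 were called lower, Fos, Junb and Dusp1, against 0.95% of all genes called. In B-1-type B cells 2 of 13 were called lower, Fos and Junb, against 0.206% of all genes, and in CD4 T cells 1 of 13, Junb, against 0.0835%. In NK cells and ILC1, and in monocytes and macrophages, 0 of 15 and 0 of 17 were called, with medians of −0.11 and −0.57.

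Of these early genes 9 stand also in the list linked to tissue dissociation. In follicular-type B cells 9 of 22 tested genes of that list were called lower and 2 higher, beside the 3.11% of all genes. The 2 higher ones were the heat shock genes Hspa1a, at 1.54 ± 0.36, and Hspa1b, at 2.43 ± 0.29 (edgeR adjusted p of 0.017 and 1.6e-05). These are near-identical neighbours whose counts may be split between them. In CD8 T cells 6 of 19 were lower and 2 higher, again the same heat shock pair, beside 0.95% of all genes. The part of dissociation in the changes of the members was not tested.

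**Figure D4:**
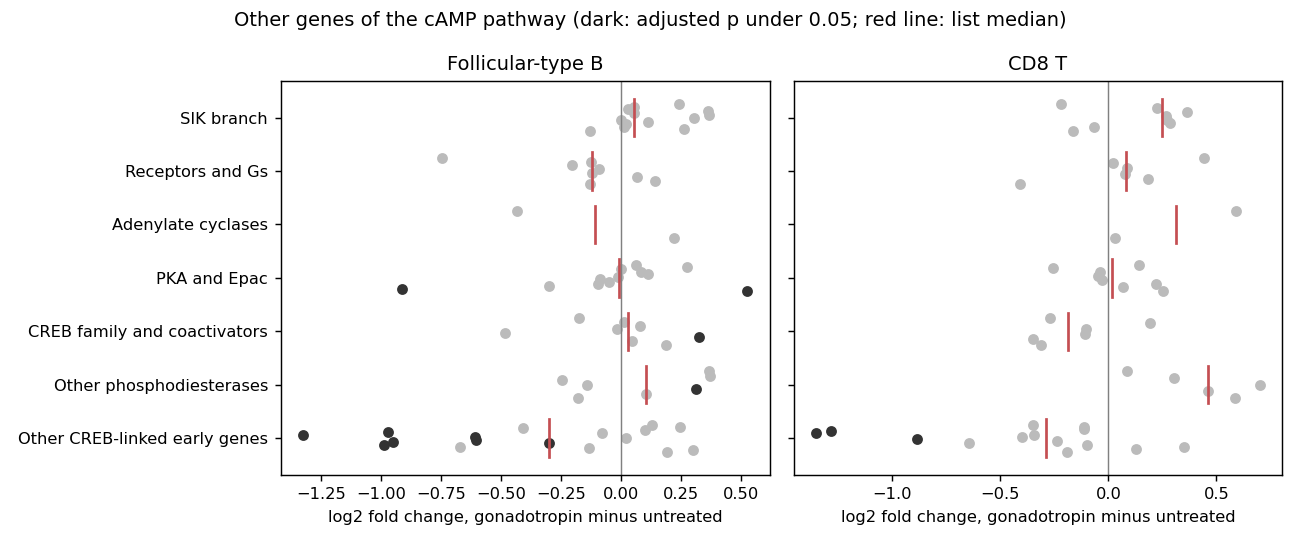
Log2 fold change, gonadotropin minus untreated (x axis), of each tested gene of 7 lists of the cAMP pathway (y axis) in follicular-type B and CD8 T cells, with called genes dark, others grey, and a red line at each list's median. The called genes of the early gene list all lie below 0, and the SIK branch has none called.

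The level of each member over the lineages was compared with CPM scaled once over all 55 sums. For each gene, lineages next to each other in the order of mean level were compared within the mice that had both, by an exact two-sided sign-flip permutation test. Of the 40 neighbouring pairs, 10 had an unadjusted p below 0.05 and 0 passed after adjustment over the 40, the smallest adjusted p being 0.0521. Several of these pairs had the smallest p that their number of mice allows, such as 0.00781 for 8 mice. With plain UMI totals in place of TMM factors, 7 pairs passed. The order is that of the mean of the 2 group means, its ends are given as a description, and it was not the same in both groups for every gene.

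By the mean of the 2 group means Sik1 was highest in monocytes and macrophages, at 150 ± 23.4 CPM in untreated and 120 ± 56.7 CPM in gonadotropin mice (SD, n = 3 and 5 mice). B-1-type B cells (167 ± 32.4 and 87.0 ± 12.6 CPM) and follicular-type B cells (139 ± 16.8 and 83.4 ± 9.70 CPM) followed, and these neighbours did not differ beyond their spread. In the untreated group B-1-type B cells were above monocytes and macrophages, and in the gonadotropin group mouse 1 held the highest value of the latter, 219 CPM. Within the 6 mice with both lineages, monocytes and macrophages were higher in 3, with a mean log2 difference of −0.09. With all 5 untreated mice summed and no TMM factor, monocytes and macrophages had 127 CPM, below B-1-type (147 CPM) and follicular-type B cells (132 CPM). In the gonadotropin library the same sums gave 109, 76.2 and 86.6 CPM. Follicular-type B cells were above CD8 T cells in 9 of 9 mice, by 0.69 ± 0.37 on the log2 scale (SD, exact permutation p = 0.00391, adjusted p = 0.0521). CD8 T cells, CD4 T cells and NK cells with ILC1 came last and did not differ beyond their spread. NK cells and ILC1 were lowest, at 67.2 ± 20.4 and 37.0 ± 15.0 CPM.

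Rgs2 was highest in monocytes and macrophages, at 455 ± 90.6 CPM in untreated and 323 ± 102 CPM in gonadotropin mice. It stood above NK cells and ILC1 in 8 of 8 mice, by 1.88 ± 0.78 on the log2 scale (SD, exact permutation p = 0.00781, adjusted p = 0.0521), and above CD8 T cells, the lowest lineage by the mean of the 2 group means, in 7 of 7 mice by 3.71 ± 0.97. The summed neutrophils held still more, 1317 CPM (1138 to 1516) in the untreated and 896 CPM (792 to 1010) in the gonadotropin library. By the same mean Kdm6b was also highest in monocytes and macrophages among the 6 lineages, at 118 ± 41.9 and 49.0 ± 20.6 CPM, but in the gonadotropin group NK cells and ILC1 were above them, at 60.3 ± 31.1 CPM. Neutrophils had 307 CPM (224 to 411) and 362 CPM (297 to 436) of Kdm6b.

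Pde4d and Pde4b differed in where they were high. Pde4d was highest in CD4 T cells, at 109 ± 36.8 CPM in untreated and 81.1 ± 20.5 CPM in gonadotropin mice, followed by CD8 T cells at 94.3 ± 19.9 and 68.7 ± 23.6 CPM. B-1-type B cells were lowest, at 8.53 ± 2.35 and 7.94 ± 1.73 CPM, below CD4 T cells in 8 of 8 mice by 3.40 ± 0.29 on the log2 scale. The 10 mast cells and basophils of each library held 1274 CPM (1000 to 1599) and 834 CPM (615 to 1106). Pde4b was highest in follicular-type B cells, at 341 ± 39.7 and 418 ± 18.6 CPM, above CD4 T cells in 9 of 10 mice by 0.76 ± 0.47 on the log2 scale (SD, exact permutation p = 0.00391, adjusted p = 0.0521). Neutrophils had 1030 CPM (872 to 1208) and 913 CPM (808 to 1027) of Pde4b.

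Ppp1r15a was highest in CD4 T cells, at 178 ± 18.7 CPM in untreated and 159 ± 13.3 CPM in gonadotropin mice, above CD8 T cells in 9 of 9 mice by 0.60 ± 0.37 on the log2 scale (SD, exact permutation p = 0.00391, adjusted p = 0.0521). NK cells and ILC1 were lowest, at 54.5 ± 13.8 and 55.9 ± 17.6 CPM. Crem was also highest in CD4 T cells, at 59.1 ± 14.1 and 58.5 ± 16.9 CPM, and lowest in monocytes and macrophages, at 25.9 ± 9.95 and 23.1 ± 5.84 CPM, with the former higher in 8 of 8 mice. Irs2 was highest in follicular-type B cells, at 37.2 ± 4.91 and 19.7 ± 5.55 CPM, and by the mean of the 2 group means lowest in NK cells and ILC1, at 9.44 ± 6.11 and 8.73 ± 1.44 CPM, although B-1-type B cells were at 7.92 CPM in the gonadotropin group.

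**Figure D5:**
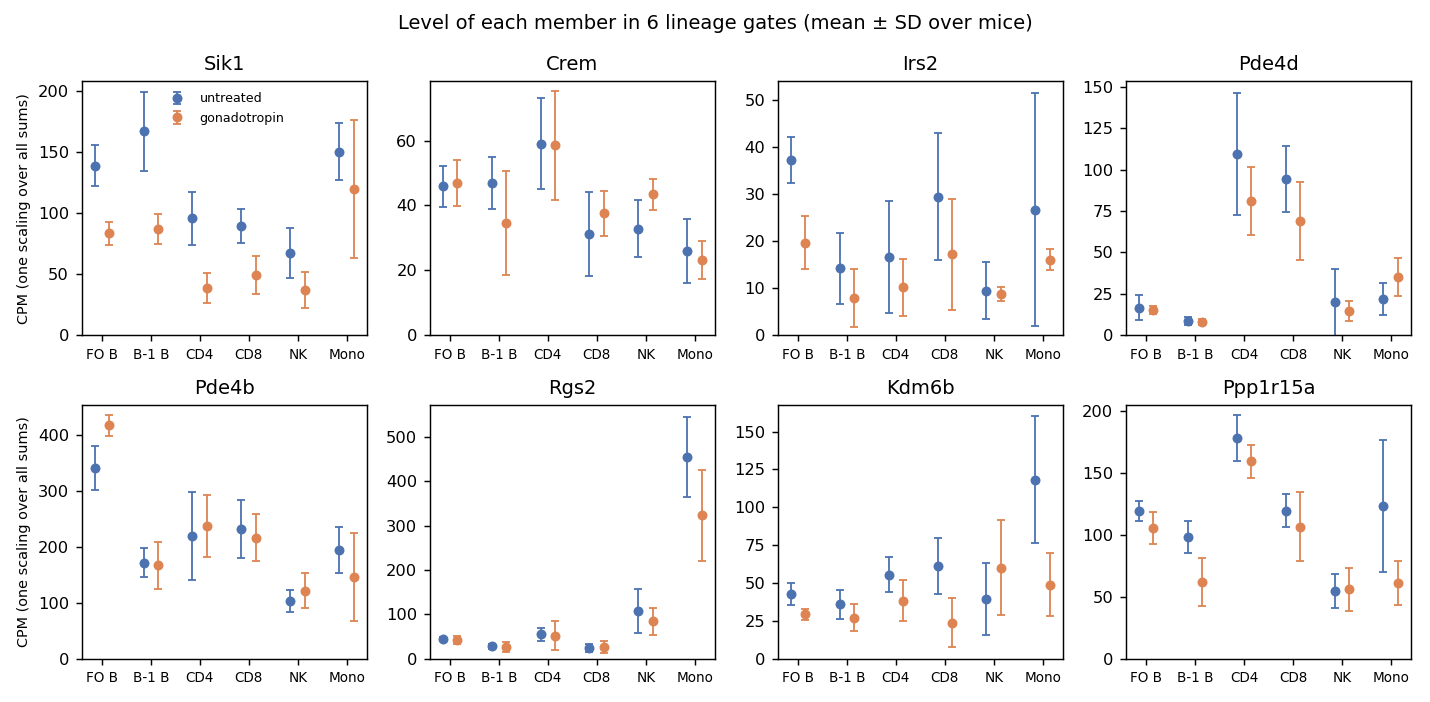
Mean and SD over mice of each member in CPM (y axis, from 0), with 1 scaling over all sums, in 6 lineages (x axis: follicular-type B, B-1-type B, CD4 T, CD8 T, NK and ILC1, monocyte and macrophage), with untreated mice in blue and gonadotropin mice in orange. Rgs2 is highest in monocytes and macrophages, Pde4d in CD4 T and CD8 T cells, and Pde4b in follicular-type B cells.

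The genes whose levels ran most like Sik1 were listed by Pearson's r of log2(CPM + 1) over the 55 sums, among 4339 genes with a mean of at least 5 on that scale. This is a description, since sums of a mouse share that mouse and sums of a group share a library. As the sums stand, Mcl1 (0.73), Zfp706 (0.70), Fos (0.70), Tep1 (0.70) and Mrpl54 (0.70) came first. With lineage means subtracted it was Junb (0.74), Ddx5 (0.71), the mitochondrial transcripts mt-Nd4l (0.69) and mt-Nd4 (0.66), and Rps27 (0.62). Both of these lists still hold the difference between the groups for which Sik1 was selected. Genes lower after gonadotropin therefore tend to rank high in them. With the group means subtracted as well, Bcl2 led at 0.60, and the next value was 0.47. Of the other members, Ppp1r15a ranked 1417 of 4339 as the sums stand, 85 with lineage means subtracted (0.41) and 225 with both subtracted. In the same order Pde4b ranked 1091, 1173 and 67 (0.34 in the last), Rgs2 1416, 618 and 940, and Kdm6b 1584, 951 and 3699. Crem had negative values in all 3 lists, from −0.25 to −0.18. Irs2 and Pde4d were below the cut on the mean level and were not ranked.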

How the data were processed

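The deposited values are whole-number UMI counts per gene and barcode, which the authors gave without normalization for both libraries in 1 table, beside hashtag calls. Tools named by the submitters' processing notes are bcl2fastq, Cell Ranger and Seurat, and the build is mm10. A deposited score, the hashtag margin of a barcode, was left aside. Cells with 1 hashtag, 500 genes or more and less than 10% mitochondrial UMIs were kept (4918 of 5031), and 1348 doublets and 89 negatives entered no test. A cell entered a lineage with at least 2 detected markers and a share of detected markers at least 2 times the next lineage's, and 188 cells entered none. Of the T cells, 364 without exactly 1 coreceptor were not analysed.

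Counts were summed per mouse and lineage and tested with edgeR 4.0.16 (TMM, filterByExpr, quasi-likelihood F test, Benjamini-Hochberg over all genes, threshold 0.05). The standard error is the log2 fold change divided by the root of F. DESeq2 1.42.0, other scalings, filters, gates and thinning were alternatives. Levels used log2(CPM + 1). The procedure was tested on simulated data. All 8 members are named, and of called genes in a list at most 5. The members, lists and tests were chosen with earlier results of these data known. The mouse numbers are only names and pair no mice. Intervals cover counting error only, at 95%.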

Additional observations from a re-analysis of the deposited data

Results flagged for a closer look

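Dixon's test at the 95% level was applied to 80 groups of 4 or 5 mice, 1 for each member, lineage and treatment group, and 7 held a mouse that lay apart from the others. Chance gives about 1 in 20. Sik1 in follicular-type B cells had 1 such mouse in each group, gonadotropin mouse 4 at 99.8 CPM (others 76.5 to 83.1) and untreated mouse 4 at 168 CPM (others 125 to 138). In CD8 T cells gonadotropin mouse 3 had 79.0 CPM of Sik1 (others 37.9 to 46.6). Gonadotropin mouse 1 stood apart in monocytes and macrophages, with Sik1 at 224 CPM (others 87.1 to 115) and Ppp1r15a at 93.9 CPM (others 49.8 to 59.3). In B-1-type B cells untreated mouse 2 had 24.5 CPM of Irs2 (others 7.77 to 11.8), and untreated mouse 5 had 34.3 CPM of Rgs2 (others 21.0 to 24.5).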

How the results depend on the processing

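Of the 3 calls in follicular-type B cells, 1 was left under DESeq2 (Pde4b, with an adjusted p for 2 of 7 members). The stricter gate left 1 (Irs2). DESeq2 without independent filtering, an alternative chosen after seeing the data, left 2. With thinned cells none of the 3 was left, and Rgs2 was called instead (−0.78, edgeR adjusted p = 0.0382). Leaving out a mouse gave 1 to 3 calls, and 1 (Irs2) without gonadotropin mouse 1 or 4 or untreated mouse 2 or 3. The 1 call in CD8 T cells became 0 under DESeq2 with or without that filtering (Kdm6b, adjusted p = 0.054 without), with the stricter gate and with thinned cells, and 0 to 1 without a mouse. DESeq2 gave an adjusted p there for 1 of 6 members, and thinning left 2 members to test, Kdm6b not among them under either. The 0 calls in monocytes and macrophages became 2 (Kdm6b, Ppp1r15a), and the 0 interactions became 2, with no filter on low counts. The 0 neighbouring pairs became 7 with plain totals, and 1 of 9 with the stricter gate. The cause was not tested. Over all genes, 130 higher and 131 lower calls in follicular-type B cells became 197 and 111 without TMM factors, 199 and 231 without the filter, 80 and 78 with the stricter gate and 41 and 79 when thinned. In CD8 T cells 25 and 27 became 60 and 24 without TMM factors.

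Most uncalled changes that turned sign were near 0 or widely spread. Rgs2 in monocytes and macrophages was an exception, at −0.53 ± 0.25 before thinning. Without TMM factors Pde4d (0.027) and Rgs2 (0.001) in follicular-type B cells and Pde4b in CD8 T cells (0.022) did so. With the stricter gate it was Crem (−0.070) and Pde4d (0.0003) in follicular-type B cells, Pde4b in CD4 T cells (−0.043), and Crem (−1.004) and Pde4b (0.22) in CD8 T cells. Thinned, it was Pde4b in B-1-type B (0.49), CD4 T (−0.18) and CD8 T cells (0.064), and Sik1 (0.12) and Rgs2 (0.040) in monocytes and macrophages, and Sik1 in B-1-type B cells moved to −0.41. With at least 10 cells Rgs2 in B-1-type B cells was 0.043. With plain totals 6 level differences turned: Sik1 between monocytes and B-1-type (0.057) and between B-1-type and follicular-type B cells (−0.017), Crem between B-1-type and NK (−0.26), Pde4b between CD4 and CD8 T (0.043), Rgs2 between B-1-type and CD8 T (−0.12) and Kdm6b between NK and CD4 T cells (0.11).

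Leaving out a mouse turned the sign of Crem (−0.034 to 0.10), Pde4d (−0.15 to 0.20) and Rgs2 (−0.11 to 0.042) in follicular-type B cells, Pde4b (−0.22 to 0.068) and Rgs2 (−0.52 to 0.22) in B-1-type B cells, Crem (−0.26 to 0.10) and Rgs2 (−0.49 to 0.074) in CD4 T cells, Pde4b (−0.13 to 0.077) in CD8 T cells and Ppp1r15a (−0.24 to 0.21) in NK cells and ILC1. No paired analysis was possible because the mouse numbers are names within each pool. The stricter gate left too few mice for B-1-type B cells, NK cells and ILC1, and monocytes and macrophages. Depth limits the rarer lineages, where low members did not pass the filter.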
